A study of Mus musculus with 21 samples.

Results

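The Egr, Nr4a and Ier genes followed here are 9 mouse immediate early genes: Egr1, Egr2, Egr3, Egr4, Nr4a1, Nr4a2, Nr4a3, Ier2 and Ier3. They were taken by name, as the array probes whose RefSeq accession maps to these symbols, out of 20145 symbols on the array, with the brightest probe standing for a gene with more than 1. The RNA came from MIN6m9, a mouse beta cell line derived from an insulinoma, on 21 one-colour arrays in 9 groups. In a fatty acid experiment, wild-type MIN6m9 cells were left untreated or received 400 uM oleate or 400 uM palmitate for 48 h, with 3 arrays each. In a PERK experiment with 2 arrays each, wild-type cells and cells carrying Fv2E-PERK received a mock treatment (ethanol is the vehicle named in the treatment protocol), and other Fv2E-PERK cells received 1 nM of the dimerizer AP20187 for 6, 12, 24 or 48 h. When untreated and mock cells were harvested, which promoter drives the transgene and whether the Fv2E-PERK line is a single clone is not stated in the labels used here. AP20187 on wild-type cells is not analysed here. Nothing in the labels says that replicates came from separate cultures, so each p-value measures the spread between arrays only, and that spread may be technical.

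Immediate early genes are transcribed within minutes of a stimulus, from transcription factors already present in the cell, and their messages are usually short-lived. The Egr proteins are zinc finger transcription factors that bind GC-rich sites and the Nr4a proteins are orphan nuclear receptors. In beta cells, genes of both families are known to respond to glucose, calcium and cyclic AMP. PERK is a kinase of the endoplasmic reticulum that phosphorylates the translation factor eIF2 alpha under stress, and Fv2E-PERK is an engineered form of it that a small dimerizing molecule can switch on.

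Promoter sequence is shown for the genes whose changes are largest under AP20187 (Egr2 and Egr4), for both Nr4a genes with a level above background, and for Ier3, whose time course differed from theirs. All are from RefSeq's GRCm38.p6, read 5′ to 3′ on the strand of the gene and ending just before or upstream of an annotated transcript start. Capitals mark the core of the cyclic AMP response element, TGACG or its reverse complement, and in Egr2 also a CArG box, the element bound by serum response factor.

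Egr2, chr10:67537789-67537818, + strand, 30 bases from -80 to -51 of the start at 67537869: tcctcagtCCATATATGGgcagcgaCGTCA
Egr4, chr6:85513590-85513839, - strand, 250 bases: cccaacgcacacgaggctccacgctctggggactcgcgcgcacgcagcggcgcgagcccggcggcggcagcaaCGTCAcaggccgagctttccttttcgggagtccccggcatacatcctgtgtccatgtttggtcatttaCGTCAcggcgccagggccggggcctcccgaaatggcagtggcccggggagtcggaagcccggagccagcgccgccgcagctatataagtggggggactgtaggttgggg
Nr4a1, chr15:101266596-101266845, + strand, 250 bases: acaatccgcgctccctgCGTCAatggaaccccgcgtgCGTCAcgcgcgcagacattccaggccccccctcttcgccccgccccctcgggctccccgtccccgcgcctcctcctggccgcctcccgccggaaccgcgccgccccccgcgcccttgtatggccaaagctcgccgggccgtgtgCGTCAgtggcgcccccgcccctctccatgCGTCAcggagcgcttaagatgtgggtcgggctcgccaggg
Nr4a2, chr2:57124004-57124253, - strand, 250 bases: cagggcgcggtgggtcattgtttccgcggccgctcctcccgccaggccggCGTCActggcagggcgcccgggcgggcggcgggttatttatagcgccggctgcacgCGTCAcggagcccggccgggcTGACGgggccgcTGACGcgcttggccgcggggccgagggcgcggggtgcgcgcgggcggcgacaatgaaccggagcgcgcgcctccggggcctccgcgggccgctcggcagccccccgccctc
Ier3, chr17:35821463-35821712, + strand, 250 bases: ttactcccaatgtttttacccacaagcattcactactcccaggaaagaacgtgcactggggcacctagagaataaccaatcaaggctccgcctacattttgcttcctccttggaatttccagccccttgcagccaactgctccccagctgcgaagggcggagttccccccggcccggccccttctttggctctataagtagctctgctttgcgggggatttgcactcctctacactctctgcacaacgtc

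RefSeq's promoter table held 10 start sites of 6 of the 9 genes: Egr2, Egr4, Nr4a1, Nr4a2, Nr4a3 and Ier3. In the 250 bases before the start, searched on both strands, TGACG was present for 5 of these 6 genes, all but Ier3. By start site it was present at 7 of the 10, some of which overlap, and in 17.77% of 32851 promoters of the same length in the table. TGACG occurred 4 times each for Nr4a1, Nr4a2 and Nr4a3, and 2 times for Egr4. The CArG box was found for 1 gene, Egr2, at 4 of the 10 start sites, and in 1.47% of all promoters. The binding site of the Egr proteins themselves, GCGNGGGCG, was found for Nr4a1 and Nr4a2 and in 4.7% of all promoters. The full cyclic AMP response element TGACGTCA, in 1.55% of all promoters, the Nr4a element AAAGGTCA, in 1.34%, and the Atf4 and C/EBP element TGATGNAA, in 3.45%, were not found for any of the 6 genes. TATAAA was found for Nr4a2 and in 12.37% of all promoters, and the Ets core CCGGAA for Nr4a1 and Egr2 and in 12.03%. TGACG is contained in TGACGTCA and a CArG box can hold TATAAA. A match of letters describes the sequence and says nothing of binding.

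Levels are log2 of the authors' processed signal minus the 75th percentile of the array, so 0 is the signal that 75% of the probes lie below and each unit is a doubling. Arrays held 62976 spots, of which none was saturated, and 49.8 to 53.5% of the probes on fatty acid arrays, and 46.8 to 56.9% of those on PERK arrays, were well above background. Replicate arrays correlated at 0.978 to 0.996 over the entries, with untreated replicate 2 farthest from its partners. All 10 beta cell markers were well above background on every array but 1 untreated array, which had 9. Markers of another tissue differed between arrays. The summed relative signal of 9 heart muscle genes was 16.9 to 22 in untreated and 18.2 to 21.1 in oleate cells. It was 0.229 to 1.19 in palmitate cells and 0.264 to 0.298 in wild-type mock cells of the PERK experiment. That of 10 skeletal muscle genes was 1.62 to 1.87 in untreated and oleate cells. With palmitate it was 24.4 on replicates 1 and 2 and 1.29 on replicate 3. Slides also differed: palmitate replicate 3 lay on a slide without other arrays used here, and in the PERK experiment both wild-type mock and both 48 h arrays shared 1 slide and all other arrays another.

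**Figure D1:**
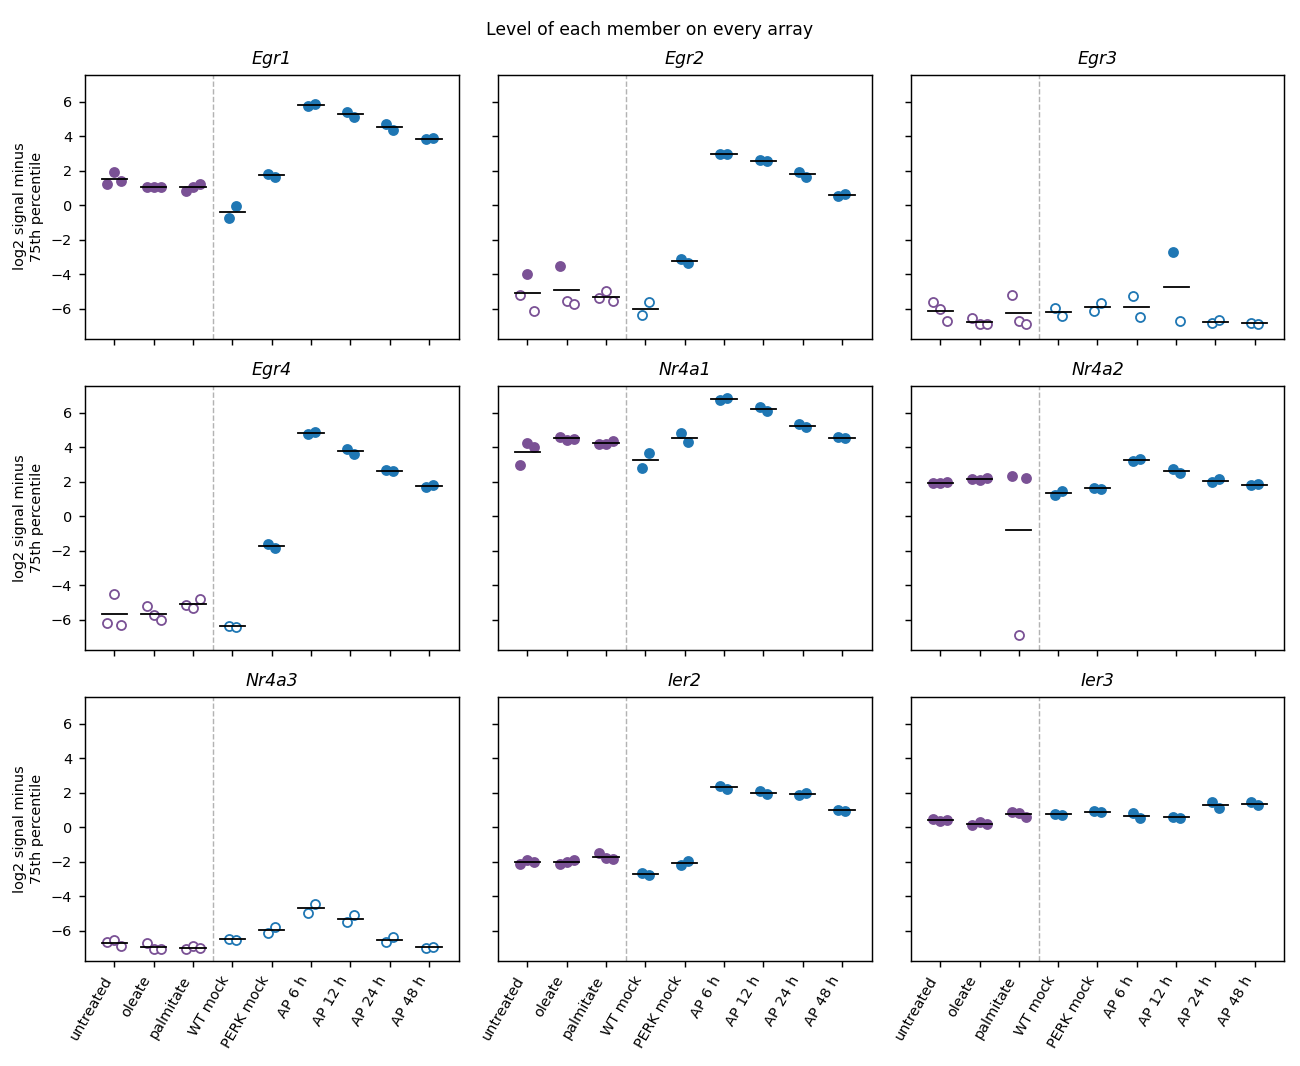
Level of each of the 9 genes on every array, as log2 of the processed signal minus the array's 75th percentile. Each point is 1 array (3 per fatty acid group, 2 per PERK group), open points are not well above background, bars are group means, and the dashed line separates the experiments; 6 genes stand highest at 6 h of AP20187 with both arrays well above background, and Egr3 and Nr4a3 stay near the bottom on nearly every array.

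PERK activation by AP20187 was accompanied by a large, early increase of 3 Egr genes, 2 Nr4a genes and Ier2. At 6 h against Fv2E-PERK mock, Egr4 was 94.7-fold higher, Egr2 71.7-fold, Ier2 21.1-fold, Egr1 17.0-fold, Nr4a1 4.78-fold and Nr4a2 3.16-fold, and the mean level of each of the 6 was lower at every later time than at the one before. With normexp background correction, which compresses dim signals, the log2 change of Egr4 at 6 h was 5.91 in place of 6.57, and the folds were 28.2 for Egr2, 12.9 for Ier2, 16.7 for Egr1, 5.12 for Nr4a1 and 3.18 for Nr4a2. Of the 7 genes tested, 6 were called higher (limma, Benjamini-Hochberg adjusted p under 0.05) at 6 h, beside 24.9% of 23388 entries tested. The counts were 6 of 7 at 12 h beside 27.2%, 7 of 7 at 24 h beside 27%, and 5 of 7 at 48 h beside 27.2% of entries. The median change of the 7 was 4.09, 3.53, 2.80 and 2.12 on the log2 scale at 6, 12, 24 and 48 h, and that of all entries -0.23, -0.19, -0.20 and -0.07. The 4 comparisons share the mock arrays. Egr3 and Nr4a3 were not well above background on both arrays of any group and were not tested.

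A change this broad makes the scale matter. Of all entries called against mock, 38.4 to 44.0% were higher with the 75th percentile scale, 47.5 to 49.6% after quantile normalization and 88.0 to 93.5% when arrays were scaled to the spike-in RNA. Spike-in scaling moved the median of all entries up by 0.59 to 0.93, so the changes given here are relative to the bulk of the entries. The 6 genes that rose at 6 h were higher under each of these scales.

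Egr1, the best-studied member of its family and a serum and stress responsive regulator, had levels of 1.81 and 1.65 in Fv2E-PERK mock cells. It reached 5.77 and 5.86 after 6 h, 5.39 and 5.13 after 12 h, 4.68 and 4.37 after 24 h, and 3.82 and 3.88 after 48 h. Every treated array was above both mock arrays, and no 2 neighbouring times overlapped. The change was 4.09 ± 0.21 (SE, n = 2 per group; limma adjusted p = 3.2e-06) at 6 h and 2.12 ± 0.21 (adjusted p = 6.6e-05) at 48 h, so the level at 48 h was still 4.35-fold that of mock.

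Egr2, known from myelination and from T cell tolerance, was dim in mock cells at -3.11 and -3.35, yet well above background on both arrays. It stood at 2.93 on both 6 h arrays, 2.61 and 2.55 after 12 h, 1.93 and 1.66 after 24 h, and 0.55 and 0.63 after 48 h. The groups did not overlap at any step. The change was 6.16 ± 0.22 (SE; limma adjusted p = 7.4e-07) at 6 h and 3.82 ± 0.22 (adjusted p = 4.3e-06) at 48 h, where it was 14.1-fold above mock.

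Egr4, a family member otherwise described mostly in neurons and germ cells, had the largest change of the 7 genes at 6 h. Its levels were -1.61 and -1.85 in mock cells and 4.77 and 4.91 after 6 h. They were 3.91 and 3.61 after 12 h, 2.68 and 2.60 after 24 h, and 1.69 and 1.79 after 48 h. No groups overlapped. The change of 6.57 ± 0.12 (SE; limma adjusted p = 9.4e-08) at 6 h was followed by 3.47 ± 0.12 (adjusted p = 5.9e-07) at 48 h, an 11.1-fold difference from mock.

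Egr3, known from muscle spindle development, was near the floor throughout. Its levels on the 12 arrays of the PERK experiment lay between -6.91 and -5.27 except on 1 array, 12 h replicate 1, at -2.73, the only array of the 21 on which it was well above background. The other 12 h array stood at -6.72. With 1 array of 2 above background, no change was tested for Egr3.

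Nr4a1, also called Nur77, a receptor induced by many hormonal and metabolic signals, measured 4.81 and 4.32 in mock cells, 6.77 and 6.87 after 6 h, 6.33 and 6.13 after 12 h, 5.35 and 5.15 after 24 h, and 4.58 and 4.54 after 48 h. The first 3 times lay above mock and the 48 h arrays lay between the mock arrays. The change was 2.26 ± 0.26 (SE; limma adjusted p = 0.00013) at 6 h and 1.67 ± 0.26 (adjusted p = 0.00059) at 12 h. At 24 h it was 0.69 ± 0.26 with an adjusted p of 0.044, a call lost in 11 of 19 other settings, among them without Fv2E-PERK mock replicate 2 (0.45, adjusted p = 0.23) and without 24 h replicate 1 (0.59, adjusted p = 0.17). At 48 h it was -0.00 ± 0.26 (adjusted p = 0.99), with a 95% interval of -0.60 to 0.60.

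Nr4a2, or Nurr1, best known for its role in dopamine neurons, has 2 probes on the array. The brighter probe read 1.66 and 1.59 in mock cells, 3.22 and 3.34 after 6 h, 2.75 and 2.53 after 12 h, 1.99 and 2.14 after 24 h, and 1.79 and 1.84 after 48 h. The dimmer probe read 0.42 and 0.31 in mock cells, 1.99 and 2.04 after 6 h, 1.31 and 1.08 after 12 h, 0.47 and -0.02 after 24 h, and -0.09 and -0.12 after 48 h. Both probes were highest at 6 h, but at 48 h the brighter one lay above both mock arrays and the dimmer one below them. For the brighter probe the change was 1.66 ± 0.11 (SE; limma adjusted p = 9.6e-06) at 6 h, 0.44 ± 0.11 (adjusted p = 0.0084) at 24 h and 0.19 ± 0.11 (adjusted p = 0.17) at 48 h. The 48 h difference was called with normexp correction (0.33, adjusted p = 0.021) and with spike-in scaling (0.78, adjusted p = 0.014). With the mean of both probes the 24 h change was 0.15 and was not called (adjusted p = 0.3).

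Nr4a3, or Nor1, the third receptor of the family, was not well above background on any of the 21 arrays. Its signals read -6.12 and -5.78 in mock cells, -4.96 and -4.42 after 6 h, -5.49 and -5.08 after 12 h, -6.67 and -6.33 after 24 h, and -6.97 and -6.90 after 48 h. The 6 h and 12 h arrays gave the highest of these readings, but a probe below background gives only a bound, and no fold is given.

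Ier2, a small nuclear protein induced by growth factors, measured -2.20 and -1.95 in mock cells. It read 2.40 and 2.24 after 6 h, 2.11 and 1.94 after 12 h, 1.90 and 2.0 after 24 h, and 1.04 and 0.94 after 48 h. Every treated array was above both mock arrays, and the 12 h and 24 h arrays overlapped. The change was 4.4 ± 0.11 (SE; limma adjusted p = 4.6e-07) at 6 h, 4.03 ± 0.11 (adjusted p = 2.3e-07) at 24 h and 3.06 ± 0.11 (adjusted p = 6.9e-07) at 48 h, when it was 8.37-fold above mock.

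Ier3, also known as IEX-1 and associated with cell survival under stress, went another way. Its levels were 0.96 and 0.87 in mock cells, 0.84 and 0.53 after 6 h, 0.62 and 0.53 after 12 h, 1.47 and 1.13 after 24 h, and 1.47 and 1.30 after 48 h. The early arrays were below mock and the late ones above. The early differences were -0.23 ± 0.14 (SE; limma adjusted p = 0.18) at 6 h and -0.34 ± 0.14 (adjusted p = 0.062) at 12 h, not called, and with spike-in scaling both have the opposite sign, 0.43 and 0.39. Without 1 of the 6 h or 24 h arrays the 12 h difference was called, at an adjusted p of 0.036 to 0.049. The late ones were 0.39 ± 0.14 (adjusted p = 0.039) at 24 h and 0.47 ± 0.14 (adjusted p = 0.019) at 48 h. The 24 h call was lost in 8 of 19 other settings, among them without 24 h replicate 1 (0.21, adjusted p = 0.23) and without either Fv2E-PERK mock array (0.43, adjusted p = 0.076 and 0.34, adjusted p = 0.14), and the 48 h call was lost without Fv2E-PERK mock replicate 2 (0.43, adjusted p = 0.082) or without 48 h replicate 1 (0.39, adjusted p = 0.11).

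**Figure D2:**
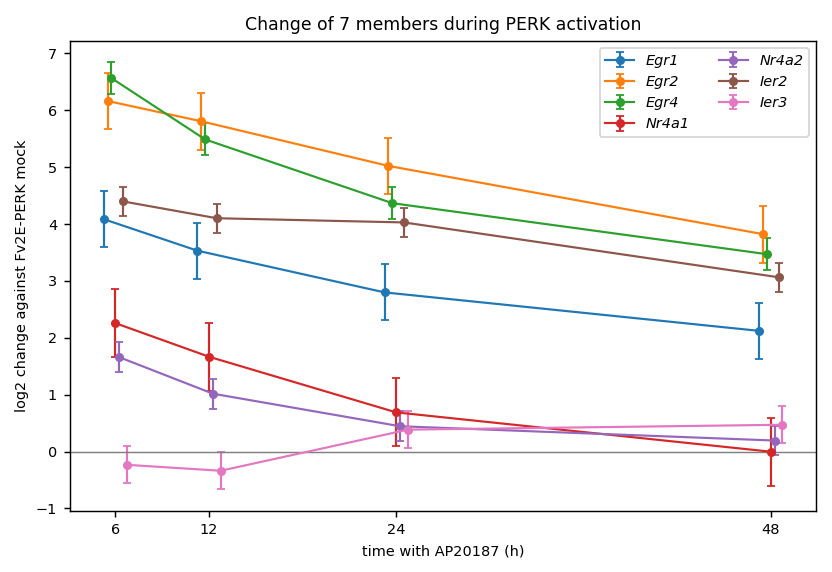
Log2 change of the signal relative to the 75th percentile, against Fv2E-PERK mock, at 6, 12, 24 and 48 h of AP20187 for the 7 genes tested, with 95% intervals from the fit on 2 arrays per group; points are offset slightly in time for legibility. Egr1, Egr2, Egr4 and Ier2 stay above 2 at 48 h, Nr4a1 and Nr4a2 come down to intervals that include 0 on this scale, and Ier3 alone is higher late than early.

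The 48 h level was set against the 6 h level directly. Of the 7 genes, 6 were called lower beside 27.6% of all entries, and 1, Ier3, was called higher beside 33.2%. Egr4 fell by 3.09 ± 0.12 (SE; limma adjusted p = 2.1e-06), Egr2 by 2.34 ± 0.22 (adjusted p = 5.4e-05), Nr4a1 by 2.26 ± 0.26 (adjusted p = 0.00015) and Egr1 by 1.96 ± 0.21 (adjusted p = 0.00012). Nr4a2 fell by 1.46 ± 0.11 (adjusted p = 2.4e-05) and Ier2 by 1.33 ± 0.11 (adjusted p = 3.3e-05), while Ier3 rose by 0.70 ± 0.14 (adjusted p = 0.0029), a call lost with spike-in scaling (0.63, adjusted p = 0.067). The median of the 7 was -1.96 and that of all entries 0.10.

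The slide and the 48 h group cannot be told apart here or at 48 h against mock, but 24 h and 6 h lay on 1 slide. At 24 h against 6 h, a comparison added after seeing the data, the same 6 genes were lower and Ier3 higher. The differences were -2.20 for Egr4, -1.57 for Nr4a1, -1.29 for Egr1, -1.21 for Nr4a2 and -1.14 for Egr2. The smallest was Ier2 at -0.37 (limma adjusted p = 0.031), and Ier3 was higher by 0.62 (adjusted p = 0.0095). All 7 were called, beside 9189 of 23388 entries, of which 52.9% were higher.

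Before any dimerizer, mock-treated Fv2E-PERK cells already had more of several of these messages than mock-treated wild-type cells. Egr1, Egr2, Egr4, Nr4a1 and Ier2 were called higher, which is 5 of 7 genes beside 9.23% of all entries. Egr1 read -0.74 and -0.04 in wild-type mock, against 1.81 and 1.65 in Fv2E-PERK mock, a 4.33-fold difference (2.12 ± 0.21 SE; limma adjusted p = 0.00038). Nr4a1 read 2.83 and 3.67 in wild-type mock and was 2.49-fold higher in Fv2E-PERK mock (1.31 ± 0.26; adjusted p = 0.011), a call lost without Fv2E-PERK mock replicate 1 (1.07, adjusted p = 0.064). Ier2 read -2.63 and -2.74 and was 1.52-fold higher (0.61 ± 0.11; adjusted p = 0.0077), a call lost with normexp background correction (0.27, adjusted p = 0.12) and with spike-in scaling (0.73, adjusted p = 0.069). In all 3 the genotypes did not overlap, and the same held for Nr4a2 and Ier3, which were not called. The share of all entries without overlap is not given here.

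Egr4 and Egr2 were not well above background in wild-type mock cells, at -6.34 and -6.42 for Egr4 and -6.40 and -5.64 for Egr2. In Fv2E-PERK mock Egr4 was at least 6.38-fold and Egr2 at least 2.25-fold higher. These bounds are against the dimmest signal called well above background on the wild-type mock arrays. The limma calls used the readings as they stood (adjusted p = 5e-07 for Egr4, 8.8e-05 for Egr2). The bounds were not tested. Both genes passed the filter only in Fv2E-PERK cells, and both are among the 5 called. The bounds hold for the processed signal. Normexp correction adds an offset of 50 to every corrected intensity, so its differences of dim probes are on another scale: they were 1.45 for Egr4 and 0.59 for Egr2, both called. Nr4a2 (1.24 and 1.48 in wild-type mock) differed by 0.26 ± 0.11 (adjusted p = 0.15) and Ier3 (0.81 and 0.70) by 0.16 ± 0.14 (adjusted p = 0.46), neither of them called. The probe of Eif2ak3, the PERK gene, differed by -0.13 ± 0.15 between the genotypes (limma adjusted p = 0.6), and whether it detects the transgene is not known here. The genotypes lay on different slides, so slide and genotype cannot be told apart. Marker levels differed too: the summed signal of 4 markers of other islet endocrine cells was 24.9 to 26.5 in wild-type and 64.9 to 66.4 in Fv2E-PERK mock, and that of 5 exocrine markers 3.74 to 6.70 and 19.1 to 23.8. Their part in the result was not tested.

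The 48 h arrays share a slide with wild-type mock. Against that control, also added after seeing the data, the 48 h differences were 4.24 for Egr1 and 3.67 for Ier2, each larger than against Fv2E-PERK mock. Egr4 and Egr2 were not well above background in wild-type mock, and at 48 h Egr4 was at least 70.7-fold and Egr2 at least 31.8-fold higher. Nr4a1, whose 48 h difference from Fv2E-PERK mock was not called, was 1.31 higher than wild-type mock (limma adjusted p = 0.0023). Nr4a2 was 0.45 higher by its brighter probe (adjusted p = 0.0081). Its dimmer probe read -0.09 and -0.12 at 48 h, between its wild-type mock readings of -0.18 and 0.20. In this comparison genotype and AP20187 change together.

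In the fatty acid experiment 1 of the 9 genes was called. Of the 5 tested, Ier3 was called higher with palmitate, 1.28-fold above untreated and 1.47-fold above oleate, and no other was called in any of the 3 comparisons. This was 1 of 5 higher beside 7.42% of 21281 entries for palmitate against untreated, and 1 of 5 beside 7.48% for palmitate against oleate. For oleate against untreated it was 0 of 5 beside 0.836%, with 3 of the 5 genes, and 16.3% of all entries, at an unadjusted limma p under 0.05. Nr4a2 is among the 5, and its tests were widened by 1 palmitate spot, described below. Egr2 and Egr4, the genes with the largest AP20187 changes, were not well above background on all arrays of any fatty acid group, nor were Egr3 and Nr4a3, and these 4 were not tested.

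Ier3 read 0.49, 0.40 and 0.41 in untreated, 0.16, 0.29 and 0.23 in oleate, and 0.87, 0.86 and 0.62 in palmitate cells. The 3 groups did not overlap. Palmitate differed from untreated by 0.35 ± 0.08 (SE, n = 3 per group; limma adjusted p = 0.016) and from oleate by 0.56 ± 0.08 (adjusted p = 0.0034), and oleate from untreated by -0.21 ± 0.08 (adjusted p = 0.25). The first of these calls was lost in 6 of 18 other settings, among them without palmitate replicate 1 (0.31, adjusted p = 0.057), without palmitate replicate 2 (0.31, adjusted p = 0.052) and with spike-in scaling (0.52, adjusted p = 0.088). On the slide that holds the untreated and 2 of the palmitate arrays, the difference was 0.43 (adjusted p = 0.0054), and with the palmitate array of the other slide alone it was 0.19 (adjusted p = 0.19), where the lone array is assumed to vary like the other groups. The heart muscle markers differed between palmitate and the other groups, and the skeletal muscle markers between palmitate arrays. Their part in this result was not tested.

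Egr1 read 1.24, 1.92 and 1.41 in untreated, 1.08, 1.06 and 1.02 in oleate, and 0.83, 1.08 and 1.2 in palmitate cells. Each fatty acid array was below the 3 untreated arrays. The differences of -0.49 ± 0.17 with palmitate (SE; limma adjusted p = 0.082) and -0.47 ± 0.17 with oleate (adjusted p = 0.24) were not called. Without untreated replicate 1 the palmitate difference was -0.63 with an adjusted p of 0.046. Palmitate and oleate differed by -0.02, with a 95% interval of -0.41 to 0.37.

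Nr4a1 read 2.95, 4.25 and 4.0 in untreated, 4.61, 4.43 and 4.49 in oleate, and 4.20, 4.21 and 4.39 in palmitate cells. Untreated replicate 1 was the lowest of the 9, and palmitate overlapped untreated while oleate did not. The differences from untreated were 0.53 ± 0.29 with palmitate (SE; limma adjusted p = 0.24) and 0.78 ± 0.29 with oleate (adjusted p = 0.25), not called. Ier2 read -2.11, -1.89 and -1.99 in untreated, -2.12, -1.97 and -1.89 in oleate, and -1.51, -1.75 and -1.82 in palmitate cells. Palmitate lay above the other groups without overlap, by 0.30 ± 0.10 against untreated (adjusted p = 0.074), not called.

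Nr4a2 turned on 1 spot. Its brighter probe read 1.95, 1.93 and 1.96 in untreated, 2.17, 2.09 and 2.21 in oleate, and 2.33, -6.87 and 2.20 in palmitate cells. The spot on palmitate replicate 2 was at background and carried no outlier flag, while the dimmer probe read 0.84, 0.90 and 0.89 in palmitate and 0.55, 0.82 and 0.60 in untreated cells. With that array the change was -2.72 ± 2.17 (SE; limma adjusted p = 0.42), and without it 0.32 (adjusted p = 0.021). For the brighter probe the direction with palmitate therefore depends on 1 spot of 1 array. The dimmer probe was well above background on every array and read higher on each palmitate than on each untreated array. In oleate cells it read 0.96, 0.95 and 0.82.

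**Figure D3:**
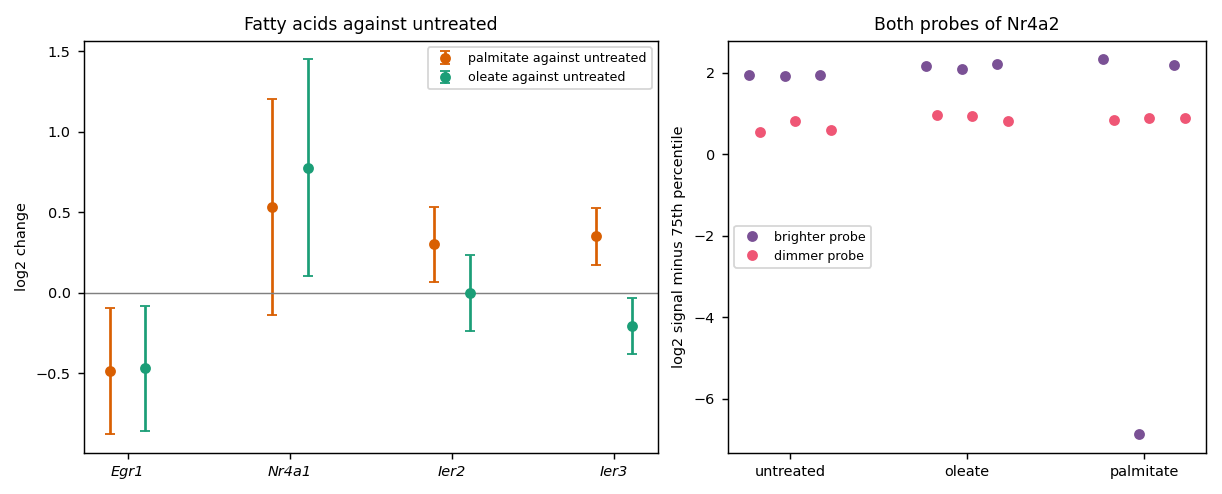
Left, log2 change with palmitate and oleate against untreated for 4 of the 5 genes tested, with 95% intervals from the fit on 3 arrays per group; right, both probes of Nr4a2 on each of the 9 arrays, as log2 signal minus the 75th percentile. Ier3 differs in sign between the fatty acids, and the brighter Nr4a2 probe is at -6.87 on 1 palmitate array and between 1.93 and 2.33 on the other 8.

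The 9 genes were read beside 30 other immediate early genes. At 6 h of AP20187, 23 of the 29 tested were called higher and 0 lower beside 24.9% and 40% of all entries (limma; the median change was 1.96, or 1.85 with genes below background in 1 group at their bound). Among the highest changes were those of Arc, a neuronal plasticity gene (3.93), the AP-1 subunits Junb (3.76) and Fosb (3.74), and Ier5l (2.96). At 48 h, 21 were higher and 3 lower beside 27.2% and 34.6% of all entries, with a median of 1.32, or 1.03 with such genes at their bound. Klf6 was higher by 3.05, Gadd45b by 2.69 and Myc by 2.62, and the AP-1 subunit Fosl1, not well above background in mock, was at least 3.78-fold higher. At 48 h against 6 h, 16 of the 29 were lower and 6 higher beside 27.6% and 33.2% of all entries, with a median of -0.59. Ier5l (-2.31), Fos (-2.18), Klf2 (-1.98) and the antiproliferative gene Btg2 (-1.91) had the largest differences. With palmitate against untreated, 7 of 26 were higher and 2 lower beside 7.42% and 12.6% of all entries. Myc was higher by 1.1, and Plk2, not well above background in untreated cells, was at least 1.68-fold higher. With oleate 0 were higher and 1 lower.

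Upstream regulators were called in both directions on the 75th percentile scale, as were all entries. Of 21 kinases and transcription factors known to act on immediate early genes, 6 were higher and 7 lower at 6 h, beside 24.9% and 40% of all entries, and 4 higher and 5 lower at 48 h, beside 27.2% and 34.6%. With spike-in scaling 11 were higher and 0 lower at 6 h, and 8 and 0 at 48 h. On that scale 10170 of 23388 entries were called at 6 h, 89.4% of them higher, and 11408 at 48 h, 88.4% of them higher. At 6 h, Mrtfa, a coactivator of serum response factor, was higher by 1.53, Srf itself by 1.01 and Creb1, which binds cyclic AMP response elements, by 0.52. Mapk3, the kinase ERK1, was lower by 0.98 (a change of -0.98). Of 8 partners and corepressors, 3 were higher and 1 lower at 6 h, and 1 higher and 3 lower at 48 h. The shares of all entries are those given above. With spike-in scaling 6 were higher and 0 lower at 6 h, and 5 and 0 at 48 h, beside the calls over all entries on that scale given above. Nab2, a corepressor that binds Egr proteins, was higher by 1.38 at 6 h and lower at 48 h (-0.38), and its relative Nab1 was lower at 48 h (-1.0). Spike-in scaling adds 0.59 at 48 h, which turns the sign of the Nab2 difference there, and Nab1 was not called lower with it.

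The integrated stress response, the pathway downstream of eIF2 alpha phosphorylation, had a larger median change late than early. Of 10 of its genes 9 were higher and 0 lower at 6, 12 and 24 h. Of all entries 24.9, 27.2 and 27% were higher at these times, and 40, 40.5 and 40.4% lower. At 48 h 8 were higher and 1 lower, beside 27.2% and 34.6% of all entries. The median change of the 10 was 0.70 at 6 h, 1.67 at 24 h and 1.61 at 48 h. Atf3, a stress-induced transcription factor, was higher by 5.58 at 6 h and 6.52 at 48 h. At 48 h against 6 h, 5 of the 10 were higher and 2 lower, with a median of 0.40. The shares of all entries there were 33.2% and 27.6%. With spike-in scaling 4 were higher and 1 lower, beside 8433 of 23388 entries called, 51.8% of them higher. Slide and time cannot be told apart in this comparison. With palmitate against untreated 9 of the 10 were higher, beside 7.42% of all entries, with a median of 1.05. There 1 of the 5 tested Egr, Nr4a and Ier genes was called. The 10 beta cell markers were all lower at 6, 12 and 24 h, with a median of -0.82 at 6 h, and 8 were lower at 48 h, beside 40%, 40.5%, 40.4% and 34.6% of all entries. With spike-in scaling 2, 3, 3 and 3 of the 10 were lower at these times, 0 were higher except for 1 at 48 h, and the median at 6 h was -0.16. On that scale 10170, 11949, 13903 and 11408 of 23388 entries were called at these times, and 89.4, 88.0, 93.5 and 88.4% of those were higher. In a bulk sample fewer cells of a type and less RNA per cell cannot be told apart.

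**Figure D4:**
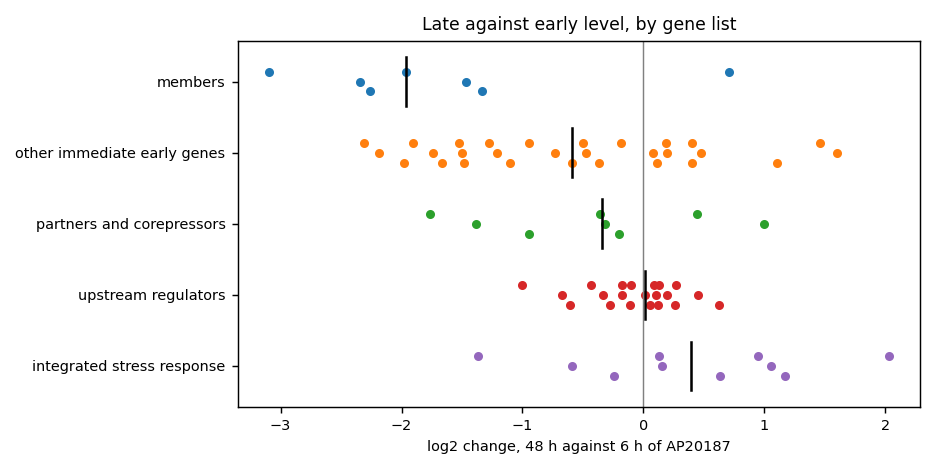
Log2 change at 48 h against 6 h of AP20187 for the 7 tested Egr, Nr4a and Ier genes (labelled members) and for 4 gene lists; each point is 1 gene and the vertical bars are list medians. The members' median is -1.96, that of other immediate early genes -0.59, and that of integrated stress response genes 0.40.

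Likeness of pattern was taken as Pearson's r over the 12 arrays of the PERK experiment, among 12173 entries well above background on all of them. Egr2, Egr3, Egr4 and Nr4a3 were not among these entries, so their likeness to Egr1 or to any other gene was not measured. These arrays share the 6 groups and 2 slides, so the values describe the ordering of the groups and carry no test. The 3 closest to Egr1 were Kbtbd6 (0.992), Ttpal (0.990) and Zdhhc18 (0.989). Those of Nr4a1 were Fbxo7 (0.982), Fos (0.975) and Dusp14 (0.975), and those of Nr4a2 were Pank4 (0.983), Stx16 (0.981) and Cgas (0.980). Ier2 was closest to Rasgef1b (0.997), Cep152 (0.996) and Relb (0.996), and Ier3 to Cdc42se2 (0.951), Scaf4 (0.943) and Zfand2a (0.934). No gene was among the closest 3 of more than 1 of them.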

How the data were processed

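RNA from 21 samples of MIN6m9 cells was amplified and labelled with Cy3, per the labels' protocols. Per the file headers, the authors used Agilent Feature Extraction 10.7.1.1 to obtain spot intensity, with background subtraction and no scaling between arrays, and the deposited files carry other flags for outlier, saturated and well above background spots. The deposited series matrix holds log2 values, which match the scanner values after removal of an offset for each array and another for each probe. How the probe offsets were set is not known here, the direction is that of the signal, and the medians of the 21 columns ran from -0.32 to 0.35. It served as an alternative.

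Here, spots flagged as outliers and control spots were left out, spots of a probe were averaged, and log2 intensity minus the array's 75th percentile was taken. Probes were named through unversioned RefSeq accessions (26582 of 55681 probes matched), giving 37208 entries, each with its brightest probe. An entry was tested if, in 1 group or more, every array had it well above background. Tests were run with limma 3.58.1 in R 4.3.3, separately for the 2 experiments, with Benjamini-Hochberg adjustment over all entries tested in a contrast and calls at 0.05. All 9 genes are reported, whatever their values. Of each gene list up to the 4 largest called changes per contrast could be named, and for likeness the 3 highest correlations. The script was tested on simulated data.

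The genes, lists and markers were chosen with earlier results of these data known. Titles gave each sample's group and replicate number, and the source name of 1 wild-type mock array gives another number. Replicate numbers did not pair the samples: deviations of same-numbered arrays correlated above 0.1 in 0 of 9 pairs of arrays in the fatty acid experiment and, with 2 arrays a group, in 2 of 15 pairs of groups in the PERK experiment. The number of arrays limits the precision. Alternatives were normexp correction, quantile and spike-in scaling, the series matrix, no filter, the mean of a gene's probes, a replicate block, slides, and leaving out arrays.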

Additional observations from a re-analysis of the deposited data

Results flagged for a closer look

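In the fatty acid experiment, the effects of palmitate and oleate on Ier3 differed from each other, by 0.56 on the log2 scale (limma adjusted p = 0.0034). In the PERK experiment, the effects of AP20187 at 48 h and at 6 h differed for all 7 genes tested: by -3.09 for Egr4, -2.34 for Egr2, -2.26 for Nr4a1, -1.96 for Egr1, -1.46 for Nr4a2, -1.33 for Ier2 and 0.70 for Ier3, the last not called with spike-in scaling (0.63, adjusted p = 0.067). Slide and time cannot be told apart there. Outside the tested genes, Egr3 was well above background on 1 array, replicate 1 at 12 h, with a level of -2.73, where its partner array read -6.72 and the mock arrays -6.12 and -5.69.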

How the results depend on the processing

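Across the alternatives, 29 of 38 called changes of single genes kept their call and direction in every setting, and of 19 changes not called, 8 changed sign in at least 1. The count of genes called for palmitate against untreated, 1, became 0 with spike-in scaling, with the series matrix values and with no filter on dim probes. Leaving out 1 array gave 0 to 2 for this count, and -4.28 to 0.32 for Nr4a2 in that comparison. With palmitate replicate 3 as the only palmitate array, on another slide than the untreated arrays, the Ier3 difference was 0.19. The count for palmitate against oleate, 1, became 0 with the series matrix values. The cause of these shifts was not tested. Nr4a2 with palmitate turned from -2.72 to 0.32 without palmitate replicate 2, where 1 spot was at background, and Nr4a1 at 48 h turned from -0.00 to 1.31 when wild-type mock, on the same slide, was the control. In the replicate block fit, Nr4a1 at 24 h lost its call (0.69, adjusted p = 0.058) and Ier3 at 12 h gained one (-0.34, adjusted p = 0.014), and the calls over all entries for oleate against untreated went from 178 to 54. Over all settings, calls over all entries ranged from 4 to 184 for oleate, from 549 to 4098 for palmitate (4268 as reported) and from 409 to 3191 for palmitate against oleate (2926). They ranged from 1417 to 5166 for Fv2E-PERK mock against wild-type mock (4679), and from 8433 to 14641 for 48 h against 6 h (14219). A block for slide in the PERK experiment was not run, since slide and groups overlap completely. Egr3 and Nr4a3, and in the fatty acid experiment Egr2 and Egr4, were limited by signal over background.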
